A study of Arabidopsis thaliana with 8 samples.

Results

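Seedlings of the Arabidopsis double mutant *fry1-6 rdr6-11* were compared with wild type (WT) by RNA-seq, in 2 libraries of *fry1-6 rdr6-11* and 2 of WT, which are 4 of the 8 libraries of the series. All seedlings were Col-0 and 12 days old, and the replicates were stated to be biological. The *fry1-6* allele is a T-DNA insertion in *FRY1*, and *fry1-6 rdr6-11* also carries the *rdr6-11* allele of *RDR6*, whereas WT carries neither mutation. The other 4 libraries are *fry1-6* and the double mutant *fry1-6 rdr1-1*, and *rdr6-11* alone was not analysed here, so the comparison with WT holds both mutations together. Nuclear genes alone are described, of which 22606 of the 37065 in the tables had enough reads to be tested.

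FRY1, also named SAL1, is a phosphatase that removes a phosphate from the nucleotide PAP, and PAP that builds up inhibits the XRN exoribonucleases, which degrade RNA from its front end. RDR6 is an RNA-dependent RNA polymerase that copies single-stranded RNA into double-stranded RNA, from which small interfering RNAs are cut. In green seedlings, the nuclear genes of photosynthesis account for a large part of the messenger RNA, and many of them follow light and the circadian clock, a loop of transcription factors that repress one another in turn over the day. The hour of harvest is not given in the sources used here, so for genes that cycle with the day, genotype and harvest hour cannot be told apart. The labels and the methods of the study also differ in the growth temperature, the day length and the library kit.

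Reads assigned to genes numbered 20687446 and 17802234 in the *fry1-6 rdr6-11* libraries, against 15680704 and 17456185 in the WT libraries. More nuclear genes had a read in *fry1-6 rdr6-11*, with 26498 and 26443 genes, than in WT, with 24423 and 24581 genes. The 100 most abundant genes took a smaller share of the counts in *fry1-6 rdr6-11*, 19.0% and 17.6%, than in WT, 27.7% and 22.5%. The levels given from here on are CPM, read counts set to the same library total and scaled by TMM, a normalization that assumes most genes do not differ. A gene was called where edgeR's quasi-likelihood test gave a Benjamini-Hochberg adjusted p under 0.05, and fold changes are on the log2 scale, *fry1-6 rdr6-11* over WT. Only the spread between 2 libraries per genotype enters these tests, and fewer cells of a type cannot be told apart from less RNA per cell. Any difference in handling between the *fry1-6 rdr6-11* and WT libraries likewise cannot be told apart from genotype.

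Neither mutated gene passed this test. *FRY1* (listed as *SAL1*) had 80.6 and 151 CPM in *fry1-6 rdr6-11*, against 49.1 and 27.5 CPM in WT (log2 1.60, SE 0.48, adjusted p = 0.0592). *RDR6* had 12.1 and 20.7 CPM in *fry1-6 rdr6-11*, against 39.5 and 20.2 CPM in WT (log2 −0.86, adjusted p = 0.202). Counts over a whole gene include reads from outside an insertion or a changed base, so neither value checks the alleles.

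In *fry1-6 rdr6-11*, 1801 nuclear genes were lower (7.97% of those tested) and 2414 were higher (10.7%) than in WT. The lowered genes mostly had many reads in WT and the raised genes mostly had few. The lowered genes had a median of 24.9 CPM in *fry1-6 rdr6-11* and 56.7 CPM in WT, and 582 of them (32.3%) averaged at least 100 CPM in WT, against 8.82% of all genes tested. The raised genes had a median of 8.34 CPM in *fry1-6 rdr6-11* and 2.20 CPM in WT, and 468 of them had at most 3 counts in each WT library. Genes this scarce in WT passed the read filter, which used all 8 libraries, only through the mutants. The low WT level of the raised genes is therefore partly set by the filter, and the 8-library mean used next also holds the mutants. Among genes with a mean log2 CPM of at least 8 over the 8 libraries, 34.1% were lower and 1.99% higher, whereas between 0 and 2 the shares were 2.52% and 18.5%. The shares of the gene lists given below were not matched for level. The sum over the lowered genes was 136351 and 121559 CPM in *fry1-6 rdr6-11*, against 367303 and 302375 CPM in WT. The median change was −1.15 among the lowered genes, 1.72 among the raised genes and 0.04 among all genes tested. At an adjusted p under 0.01, 321 genes were lower (1.42%) and 700 higher (3.10%).

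**Figure D1:**
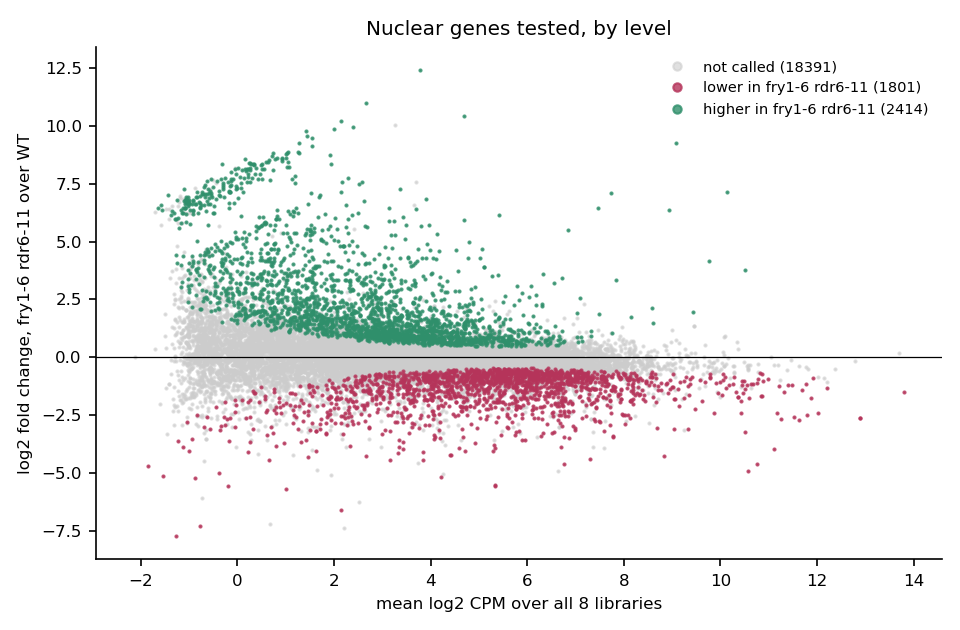
Log2 fold change of each nuclear gene tested, *fry1-6 rdr6-11* over WT (vertical axis), by mean level over the 8 libraries (horizontal axis, log2 CPM), with the called genes coloured. The share called lower grows with the level up to 34.1% at a log2 CPM of at least 8, and the share called higher falls to 1.99% there.

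The size of both groups depended on the scaling and on single libraries. With total counts in place of TMM, the median of all genes became 0.41 and the calls became 962 lower and 5737 higher, and 960 of the 1801 lowered genes and all 2414 raised genes were among them. Without replicate 1 or replicate 2 of *fry1-6 rdr6-11*, 281 and 97 genes were lower and 854 and 494 were higher. Without replicate 1 or replicate 2 of WT, 1578 and 1925 were lower and 2058 and 1875 were higher. Both *fry1-6 rdr6-11* libraries lay below both WT libraries for 27.2% of all genes tested and above both for 34.4%. The libraries did not overlap for any of the 1801 lowered and 2414 raised genes. Leaving out a library could therefore hardly reverse the direction of a called gene. Of 220 called genes taken by rule or looked up later, all kept their direction in every alternative, while 93 kept their call without replicate 1 of *fry1-6 rdr6-11* and 66 without replicate 2, and 173 and 184 without replicate 1 and replicate 2 of WT. Of 105 counts of called members over the gene lists, 96 and 102 moved by over 1.5 times without replicate 1 and replicate 2 of *fry1-6 rdr6-11*, and 39 and 40 without the WT libraries in turn.

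Genes of the photosynthetic light reactions, which encode the pigment-binding antenna proteins and the nuclear subunits of both photosystems, had the highest share of lowered members among the 60 gene lists. Of 50 such genes, 36 were lower (72.0%, against 7.97% of all genes tested) and none was called higher, with a median log2 change of −1.20, which was −0.84 with total counts. Their summed level was 51177 and 41270 CPM in *fry1-6 rdr6-11*, against 146506 and 99136 CPM in WT. In the other mutants the sum lay within or above the WT range, with 137094 and 113249 CPM in *fry1-6* and 160128 and 149977 CPM in *fry1-6 rdr1-1*. The number called was 26 without replicate 1 of WT and 36 without replicate 2, but 21 and 8 without replicate 1 and replicate 2 of *fry1-6 rdr6-11*.

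Antenna proteins of photosystem II, which collect light for it, made up the most strongly lowered part. Of 14 genes, 12 were lower, with a median log2 change of −2.61. *LHCB2.1*, of the main trimeric antenna, had 52.6 and 41.3 CPM in *fry1-6 rdr6-11*, against 1553 and 751 CPM in WT (log2 −4.62, SE 0.49, adjusted p = 0.00324). Both *fry1-6 rdr6-11* libraries were far below both WT libraries, and the call held without any one of the 4 libraries. Its near-identical copy *LHCB2.2* had 39.9 and 23.1 CPM in *fry1-6 rdr6-11*, against 1326 and 578 CPM in WT (log2 −4.92, SE 0.56), and reads cannot be divided surely between the copies. *LHCB4.2*, a minor antenna protein, had 182 and 138 CPM in *fry1-6 rdr6-11*, against 1813 and 1145 CPM in WT (log2 −3.21, SE 0.31). *LHCB6* and *LHCB5*, the other minor antenna proteins, changed by −2.58 and −1.75.

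The LHCB1 genes, which encode the rest of the main antenna, had smaller fold changes than the *LHCB2* genes named above, and this difference was not tested. *CAB1* had 5782 and 4782 CPM in *fry1-6 rdr6-11*, against 19470 and 10720 CPM in WT (log2 −1.51, SE 0.33, adjusted p = 0.0249). That call was lost without replicate 1 of WT (adjusted p = 0.0556) and without replicate 1 or replicate 2 of *fry1-6 rdr6-11* (0.0822 and 0.133). *LHB1B2*, another LHCB1 gene, had 1377 and 1435 CPM in *fry1-6 rdr6-11*, against 11410 and 6071 CPM in WT (log2 −2.64), and overlaps a second annotated gene whose count it shares. The members outside the call, both looked up after their values were seen, were *CAB2*, with 1356 and 894 CPM in *fry1-6 rdr6-11* and 3008 and 1690 CPM in WT (adjusted p = 0.103), and *LHCB4.3*, with 45.1 and 42.7 CPM in *fry1-6 rdr6-11* and 45.5 and 31.6 CPM in WT (adjusted p = 0.777). The LHCB1 genes are near-identical copies, so their separate values are uncertain.

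Photosystem I followed. All 4 of its antenna genes tested were lower, with a median change of −1.91, and *LHCA1* had 890 and 671 CPM in *fry1-6 rdr6-11*, against 5098 and 3639 CPM in WT (log2 −2.48, SE 0.27, adjusted p = 0.00354). Of 12 genes of photosystem I subunits, 10 were lower, with a median of −1.25. *PSAO*, a subunit near the docking site of the mobile antenna, had 669 and 523 CPM in *fry1-6 rdr6-11*, against 3520 and 2882 CPM in WT (log2 −2.42, SE 0.22, adjusted p = 0.00221). *LHCA1*, *LHCA4*, *PSAO*, *LHCB4.2* and both *LHCB2* genes named here were called without any one library. Of 9 nuclear genes of photosystem II subunits, 6 were lower, with a median of −1.01. Without replicate 2 of *fry1-6 rdr6-11*, the lowered genes were 4 of the photosystem II antenna, 2 of the photosystem I antenna, 1 of the photosystem I subunits and 0 of the photosystem II subunits.

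**Figure D2:**
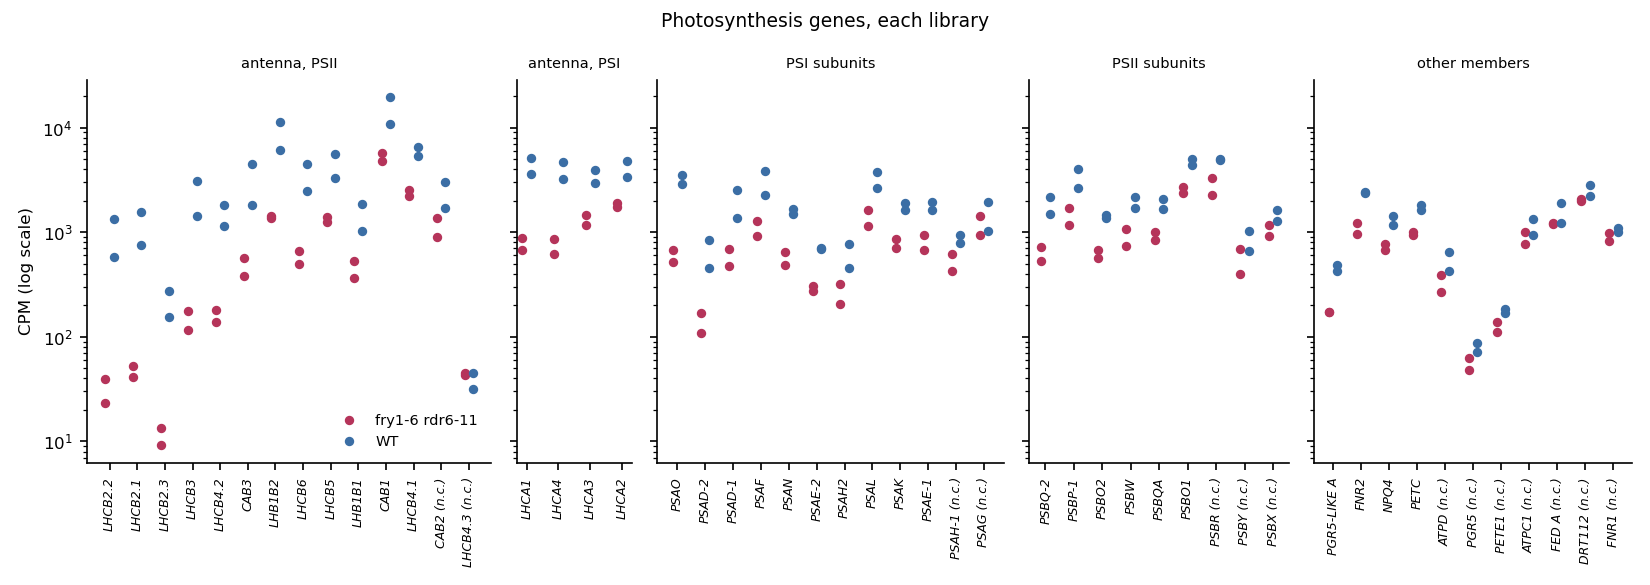
Levels of the antenna and photosystem genes in the 2 *fry1-6 rdr6-11* libraries and the 2 WT libraries (CPM on a log axis, 1 point per library). *LHCB2.1* lies at 52.6 and 41.3 CPM in *fry1-6 rdr6-11*, against 1553 and 751 CPM in WT, and the gap is smaller for *CAB1*.

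Promoter stretches of 5 genes are shown because they carry sequences known from light and clock regulation next to genes described here. They are the 180 bases before the annotated start in RefSeq's TAIR10.1 assembly, written along the strand of the gene, with the motif searched for in capitals on either strand. In the first 4, capitals mark AATATCT or its complement AGATATT, the core of the evening element bound by clock factors, and in *CAB1* they mark ACGTG or its complement CACGT, the core of the G-box. *CCA1*, higher in *fry1-6 rdr6-11*, is shown beside lowered genes, and *TOC1*, *CCA1* and the windows were chosen after the values were seen. The windows lie at chr2:9266558-9266737 for *GRP7* (minus strand), chr5:24674783-24674962 for *TOC1* (plus strand), chr2:1824481-1824660 for *LHCB2.1* (minus strand), chr2:19245411-19245590 for *CCA1* (plus strand) and chr1:10477705-10477884 for *CAB1* (plus strand).
GRP7: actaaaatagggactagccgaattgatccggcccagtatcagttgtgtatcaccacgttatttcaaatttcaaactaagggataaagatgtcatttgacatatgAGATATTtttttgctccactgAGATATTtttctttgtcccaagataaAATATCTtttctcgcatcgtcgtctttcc
TOC1: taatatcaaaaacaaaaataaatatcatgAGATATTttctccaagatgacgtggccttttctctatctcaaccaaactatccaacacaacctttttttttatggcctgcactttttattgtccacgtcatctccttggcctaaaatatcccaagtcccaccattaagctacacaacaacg
LHCB2.1: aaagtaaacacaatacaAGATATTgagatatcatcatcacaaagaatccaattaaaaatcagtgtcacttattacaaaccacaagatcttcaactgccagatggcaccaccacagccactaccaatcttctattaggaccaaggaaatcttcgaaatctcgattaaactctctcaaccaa
CCA1: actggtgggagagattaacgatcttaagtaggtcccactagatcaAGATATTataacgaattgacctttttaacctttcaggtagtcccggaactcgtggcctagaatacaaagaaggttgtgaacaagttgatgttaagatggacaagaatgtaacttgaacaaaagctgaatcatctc
CAB1: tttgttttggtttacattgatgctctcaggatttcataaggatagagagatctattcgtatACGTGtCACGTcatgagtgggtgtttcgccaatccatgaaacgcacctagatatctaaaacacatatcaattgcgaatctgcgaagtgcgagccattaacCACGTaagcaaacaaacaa

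In the 300 bases before the start, on either strand, AATATCT stood in 18.1% of 1675 lowered protein-coding genes, in 8.68% of 2062 raised ones and in 11.7% of all 20679 tested. It stood in 41.5% of 41 clock genes and 12.0% of 50 photosynthesis genes. The longer AAAATATCT, added after the values were seen and always holding an AATATCT, stood in 7.16% of the lowered genes, 1.70% of the raised genes and 2.90% of all. ACGTG stood in 31.8% of the lowered, 23.6% of the raised and 26.0% of all genes, and in 48.0% of the photosynthesis genes. TATAAA, the usual core of a TATA box, stood in 51.1%, 48.3% and 51.3%. A match is only a run of letters, and no binding was measured.

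Clock genes changed in opposite directions. Of 41, 14 were lower (34.1%) and 3 higher (7.32%), against 7.97% and 10.7% of all genes tested. The median log2 change was −0.63, or −0.27 with total counts and −0.09 without replicate 1 of WT. *GI*, a clock protein that also acts in flowering, had 13.1 and 8.60 CPM in *fry1-6 rdr6-11*, against 317 and 141 CPM in WT (log2 −4.40, SE 0.55, adjusted p = 0.00484). The pseudo-response regulators *PRR7* and *PRR5*, which repress the morning genes, were lower in both *fry1-6 rdr6-11* libraries. *PRR7* had 27.9 and 17.9 CPM in *fry1-6 rdr6-11*, against 227 and 193 CPM in WT (log2 −3.19), and *PRR5* had 12.6 and 9.88 CPM in *fry1-6 rdr6-11*, against 156 and 95.4 CPM in WT (log2 −3.48). *AT3G54500*, annotated as the clock co-activator LNK2, had 4.29 and 3.22 CPM in *fry1-6 rdr6-11*, against 49.2 and 40.3 CPM in WT (log2 −3.57). Among these, *GI* alone lost its call in any fit that left out a library, with an adjusted p of 0.0556 without replicate 2 of *fry1-6 rdr6-11*.

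The next 6 clock genes were looked up after their values were seen. *TOC1*, an evening repressor, had 101 and 88.6 CPM in *fry1-6 rdr6-11*, against 323 and 383 CPM in WT (log2 −1.90, adjusted p = 0.0352), and its call was lost without any one library, with adjusted p values from 0.0555 without replicate 1 of WT to 0.195 without replicate 2 of *fry1-6 rdr6-11*. *PCL1*, also named LUX, had 33.4 and 31.5 CPM in *fry1-6 rdr6-11*, against 120 and 158 CPM in WT, and its partner in the evening complex *ELF4* had 17.0 and 15.9 CPM in *fry1-6 rdr6-11*, against 197 and 122 CPM in WT. The third partner, *ELF3*, had 99.7 and 82.6 CPM in *fry1-6 rdr6-11* and 98.7 and 96.7 CPM in WT (log2 −0.10, adjusted p = 0.763). The morning factor *CCA1* was raised, with 13.9 and 13.2 CPM in *fry1-6 rdr6-11*, against 2.07 and 1.23 CPM in WT (log2 3.04, SE 0.48, adjusted p = 0.00969), though without replicate 2 of *fry1-6 rdr6-11* its adjusted p was 0.0592. Its close relative *LHY* had 3.27 and 3.54 CPM in *fry1-6 rdr6-11* and 0.858 and 0.123 CPM in WT, and was not called (adjusted p = 0.0559). *CCA1* was also well above both WT libraries in the other mutants, with 43.8 CPM in the lower of the *fry1-6* libraries and 75.2 and 32.2 CPM in *fry1-6 rdr1-1*.

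Clock outputs and light factors were among the lowered genes. *GRP7*, an RNA-binding protein whose transcript cycles, had 792 and 695 CPM in *fry1-6 rdr6-11*, against 5013 and 4426 CPM in WT (log2 −2.67, SE 0.52, adjusted p = 0.0178). Its paralog *CCR1* (GRP8) had 91.2 and 93.6 CPM in *fry1-6 rdr6-11*, against 708 and 818 CPM in WT (log2 −3.04, SE 0.30, adjusted p = 0.00248). *PIF4*, a growth-promoting factor that phytochrome inactivates, had 8.63 and 6.39 CPM in *fry1-6 rdr6-11*, against 138 and 84.2 CPM in WT (log2 −3.89, SE 0.30, adjusted p = 0.00149). Its relatives *PIL6* (PIF5) and *PIF7* changed by −2.39 and −1.61, and *LZF1* (BBX22), a B-box protein of light signalling, by −2.23. Of 70 light-signalling and flowering genes, 12 were lower (17.1%) and 4 higher (5.71%), against 7.97% and 10.7% of all genes tested. Their median was −0.19, which turned to 0.19 with total counts and was −0.01 without replicate 1 of WT. Without replicate 1 or replicate 2 of *fry1-6 rdr6-11*, 4 and 3 of them were lower and 2 and 1 higher, and 6 and 3 clock genes were lower and 1 and 0 higher. *GRP7* missed the threshold in both of these fits, with adjusted p values of 0.0986 and 0.130. *PIF7* was called without replicate 1 of *fry1-6 rdr6-11* and not without replicate 2. Without replicate 1 of WT, 5 light-signalling genes were lower.

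**Figure D3:**
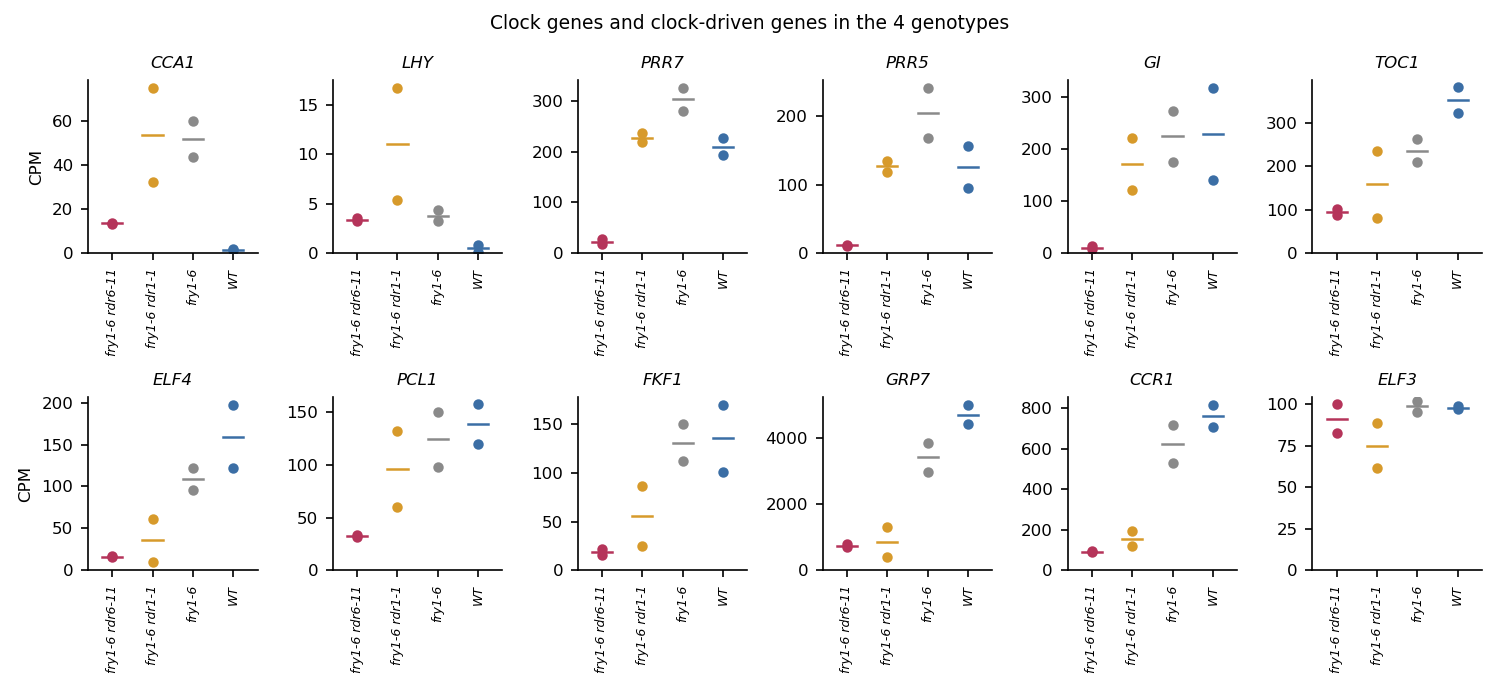
Levels of clock genes and clock-driven genes (CPM, 1 point per library, line at the mean) in the 4 genotypes. *GI*, *PRR5* and *PRR7* lie below WT in both *fry1-6 rdr6-11* libraries, and *CCA1* lies above it at 13.9 and 13.2 CPM in *fry1-6 rdr6-11*, against 2.07 and 1.23 CPM in WT.

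Lowered genes of starch metabolism lay on both the synthetic and the degradative side. Of 40 genes of starch and sucrose metabolism, 15 were lower (37.5%) and none was called higher, against 7.97% and 10.7% of all genes tested. The median of the list was −0.81, or −0.43 with total counts and −0.44 without replicate 1 of WT. *SEX1*, the glucan water dikinase that opens starch to breakdown, had 342 and 339 CPM in *fry1-6 rdr6-11*, against 2086 and 1484 CPM in WT (log2 −2.39, SE 0.35, adjusted p = 0.00793). *AMY3*, a plastid alpha-amylase, had 126 and 96.6 CPM in *fry1-6 rdr6-11*, against 563 and 341 CPM in WT (log2 −2.02). *SS4*, a starch synthase that starts granules, had 85.4 and 75.2 CPM in *fry1-6 rdr6-11*, against 345 and 235 CPM in WT (log2 −1.85). *APL1*, a subunit of the enzyme that makes ADP-glucose, changed by −1.46. Without replicate 1 or replicate 2 of *fry1-6 rdr6-11*, 3 and 0 of the 40 were lower, and without replicate 1 of WT 2 were higher.

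Chlorophyll and carotenoid synthesis, photorespiration and the Calvin cycle moved by smaller steps. Of 31 pigment genes, 10 were lower (32.3%) and none was called higher, against 7.97% and 10.7% of all genes tested. The median of the pigment genes was −0.43, or −0.05 with total counts. *ABA1*, zeaxanthin epoxidase, had 44.2 and 33.6 CPM in *fry1-6 rdr6-11*, against 245 and 186 CPM in WT (log2 −2.47, SE 0.31, adjusted p = 0.00472), and *PORB*, which makes chlorophyllide in light, had 230 and 219 CPM in *fry1-6 rdr6-11*, against 1168 and 498 CPM in WT (log2 −1.89). Photorespiration, which recycles the product of the oxygenase reaction of Rubisco, had 6 of 12 genes lower (50.0%) with a median of −0.68. *GLDP1*, of glycine decarboxylase, had 1598 and 1386 CPM in *fry1-6 rdr6-11*, against 3567 and 3429 CPM in WT (log2 −1.23). Of 22 Calvin cycle genes, 4 were lower (18.2%) and none was called higher, with a median of −0.42, or −0.05 with total counts. Examples were *CP12-2*, a regulator of the cycle, at −1.43, and *GAPB*, a subunit of its dehydrogenase, at −0.74. Abundant genes were often lower in any case, and these lists were not matched for level. Among all genes tested, 34.1% were lower at a mean log2 CPM of at least 8, with a median of −0.57. From 6 to 8 the share was 19.2%, with a median of −0.31.

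The counts of the pigment, photorespiration and Calvin cycle lists depended on single libraries. Without replicate 1 of *fry1-6 rdr6-11*, the lowered pigment, photorespiration and Calvin cycle genes numbered 1, 0 and 0, and without replicate 2 of *fry1-6 rdr6-11* they numbered 0, 0 and 0. Without replicate 1 of WT, 4 pigment genes and 2 Calvin cycle genes were lower, and without replicate 2 of WT 2 Calvin cycle genes and 4 photorespiration genes were.

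Cold-response genes were lower, with unequal WT libraries. Of 29, 8 were lower (27.6%) and none was called higher, against 7.97% and 10.7% of all genes tested. The median of the list was −2.30, or −1.91 with total counts. *GRP7* and *CCR1*, described above, are members. *RAV1*, a transcription factor, had 37.9 and 16.0 CPM in *fry1-6 rdr6-11*, against 165 and 144 CPM in WT (log2 −2.52, SE 0.42, adjusted p = 0.0115). *CSDP1*, a cold shock domain protein, had 16.1 and 19.3 CPM in *fry1-6 rdr6-11*, against 43.8 and 74.6 CPM in WT (log2 −1.74). The cold-induced factors CBF and their targets, looked up after their values were seen, were high in 1 WT library. *CBF1*, which switches on cold-regulated genes, had 0.212 and 0.368 CPM in *fry1-6 rdr6-11*, against 19.3 and 0.981 CPM in WT (adjusted p = 0.111). Its target *COR15A*, which protects chloroplast membranes in the cold, had 30.6 and 26.9 CPM in *fry1-6 rdr6-11*, against 769 and 72.7 CPM in WT (adjusted p = 0.0674). WT replicate 1 held the high value in each case, and the median of the list was −1.36 without that library. The number of lowered genes was 18 without replicate 2 of WT, and 2 without either *fry1-6 rdr6-11* library.

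Of 73 genes of osmotic stress and abscisic acid (ABA), 8 were lower (11.0%) and 3 higher (4.11%), against 7.97% and 10.7% of all genes tested. The median of the list was −0.79, or −0.42 with total counts and −0.46 without replicate 1 of WT. *DREB2A*, a drought-response factor, had 5.14 and 3.82 CPM in *fry1-6 rdr6-11*, against 35.5 and 16.1 CPM in WT (log2 −2.52, SE 0.53, adjusted p = 0.0219). *ABI2*, a phosphatase that restrains ABA signalling, had 5.01 and 7.17 CPM in *fry1-6 rdr6-11*, against 24.5 and 14.3 CPM in WT (log2 −1.67). *RAB18*, an ABA-induced dehydrin, had 21.9 and 14.7 CPM in *fry1-6 rdr6-11*, against 83.0 and 78.5 CPM in WT (log2 −2.14). Without replicate 2 of WT, 17 genes of the ABA list were lower, and without replicate 1 or replicate 2 of *fry1-6 rdr6-11*, 1 and 0 were lower and 0 were higher.

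Defence genes moved in both directions. Of 65 genes of immunity, salicylate and camalexin, 15 were lower (23.1%) and none was called higher, with a median of −0.47, or −0.10 with total counts and −0.25 without replicate 1 of WT. Among the 269 genes annotated with a defence response, however, 35 were lower (13.0%) and 42 higher (15.6%), against 7.97% and 10.7% of all genes tested. The NLR immune receptors, described below, held more raised than lowered members. *RPP4*, an intracellular receptor for downy mildew, had 43.9 and 48.6 CPM in *fry1-6 rdr6-11*, against 304 and 280 CPM in WT (log2 −2.66, SE 0.20, adjusted p = 0.00141). Its neighbour in the same cluster of related genes, *RPP5*, had 92.4 and 106 CPM in *fry1-6 rdr6-11*, against 286 and 255 CPM in WT (log2 −1.44). *RBOHD*, the oxidase that makes the oxidative burst, had 42.5 and 38.8 CPM in *fry1-6 rdr6-11*, against 136 and 211 CPM in WT (log2 −2.09). *WRKY40*, a factor induced by defence signals, had 15.4 and 7.26 CPM in *fry1-6 rdr6-11*, against 99.9 and 87.2 CPM in WT (log2 −3.04, adjusted p = 0.0420). Without replicate 1 of WT, 3 immunity genes were higher, without replicate 2 of WT 9 were lower, and without replicate 1 or replicate 2 of *fry1-6 rdr6-11*, 3 and 3 were.

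Of 44 jasmonate genes, 7 were lower (15.9%) and none was called higher, against 7.97% and 10.7% of all genes tested. The median of the list was −0.85, or −0.45 with total counts and −0.39 without replicate 2 of WT. The lipoxygenases *LOX3* and *LOX4*, which start jasmonate synthesis, were low in both *fry1-6 rdr6-11* libraries. *LOX3* had 4.46 and 8.55 CPM in *fry1-6 rdr6-11*, against 49.9 and 127 CPM in WT (log2 −3.77, SE 0.77, adjusted p = 0.0200), and *LOX4* had 6.16 and 5.98 CPM in *fry1-6 rdr6-11*, against 34.4 and 150 CPM in WT (log2 −3.93, SE 0.91, adjusted p = 0.0286). *OPCL1*, a later enzyme of the pathway, had 24.1 and 28.8 CPM in *fry1-6 rdr6-11*, against 130 and 124 CPM in WT (log2 −2.26). *TPS03*, a terpene synthase, had 0.212 CPM in 1 *fry1-6 rdr6-11* library and no read in the other, against 17.2 and 5.21 CPM in WT. Without either *fry1-6 rdr6-11* library, 0 jasmonate genes were lower, and without replicate 2 of WT 1 was higher.

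Sulfur and phosphate genes included some of the largest falls. Of 46 genes of sulfur assimilation, the pathway in which FRY1 acts on PAPS, 6 were lower (13.0%) and 3 higher (6.52%). The shares of all genes tested were 7.97% and 10.7%. The median of the list was −0.32, which turned to 0.05 with total counts and was −0.16 without replicate 1 of WT. *LSU2* and *LSU3*, induced when sulfur is short, changed by −4.08 and −4.12. *LSU2* had 1.23 and 2.44 CPM in *fry1-6 rdr6-11*, against 50.9 and 11.2 CPM in WT (SE 0.98, adjusted p = 0.0326). *APR1*, an adenylylsulfate reductase at the control point of the pathway, had 26.7 and 43.1 CPM in *fry1-6 rdr6-11*, against 209 and 135 CPM in WT (log2 −2.30, SE 0.32, adjusted p = 0.00663), and *APR3* had 36.1 and 38.0 CPM in *fry1-6 rdr6-11*, against 252 and 129 CPM in WT (log2 −2.36). *SHM7*, a serine hydroxymethyltransferase, changed by −2.70. Of these genes, *APR1* kept its call without any one library, *SHM7* missed it only without replicate 2 of *fry1-6 rdr6-11*, and *LSU2* and *LSU3* missed it without replicate 1 of WT and without either *fry1-6 rdr6-11* library. Of the 46, 2 and 1 were lower without replicate 1 and replicate 2 of *fry1-6 rdr6-11*, 4 were lower and 6 higher without replicate 1 of WT, and 1 and 0 were higher without the *fry1-6 rdr6-11* libraries in turn.

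Of 36 phosphate starvation genes, 7 were lower (19.4%) and 1 higher (2.78%), against 7.97% and 10.7% of all genes tested. Their median was −0.50, or −0.09 with total counts and −0.21 without replicate 1 of *fry1-6 rdr6-11*. *MGDC* (MGD3), which makes galactolipid when phosphate is short, had 0.637 and 1.61 CPM in *fry1-6 rdr6-11*, against 33.9 and 47.0 CPM in WT (log2 −5.17, SE 1.23, adjusted p = 0.0309). *SPX1*, a phosphate sensor that restrains the starvation response, had 21.6 and 29.1 CPM in *fry1-6 rdr6-11*, against 151 and 212 CPM in WT (log2 −2.84). *PHF1*, needed to bring phosphate transporters to the membrane, changed by −1.27 and the acid phosphatase *PAP10* by −0.95. The number lower was 3 without replicate 2 of WT and 0 without either *fry1-6 rdr6-11* library, and the number higher was 2 without either WT library and 0 without either *fry1-6 rdr6-11* library. The *fry1-6 rdr1-1* libraries differed from each other for *MGDC*, with 1.25 and 21.4 CPM.

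Other large falls came from the ranking of all genes. Among lowered protein-coding genes with a mean log2 CPM of at least 3, the 10 with the largest change spanned −5.50 to −4.08, and besides those already named they included 2 glycine-rich proteins, *CIPK20* and *BBX28*. *AT3G04640*, a glycine-rich protein, had 2.55 and 1.56 CPM in *fry1-6 rdr6-11*, against 75.3 and 112 CPM in WT (log2 −5.50, SE 0.76, adjusted p = 0.00657). *CIPK20*, a kinase that binds calcium sensors, had 0.637 and 0.276 CPM in *fry1-6 rdr6-11*, against 8.44 and 9.14 CPM in WT (log2 −4.23, SE 0.35, adjusted p = 0.00166). *BBX28*, a B-box factor of light signalling, had 0.297 and 0.552 CPM in *fry1-6 rdr6-11*, against 12.9 and 5.89 CPM in WT (log2 −4.45). Of the 3, *CIPK20* alone was called without any one library.

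Smaller groups fell in part, beside 7.97% lower and 10.7% higher among all genes tested. Of 46 core histone genes, by product name, 9 were lower (19.6%) and 2 higher (4.35%), with a median of −0.30 that turned to 0.08 with total counts. *HTB1*, a histone H2B gene, had 20.9 and 21.0 CPM in *fry1-6 rdr6-11*, against 46.1 and 37.0 CPM in WT (log2 −0.99). Of 53 genes of glucosinolate synthesis, which makes the defence compounds of the cabbage family, 7 were lower (13.2%) and 2 higher (3.77%). Their median was −0.36, which turned to 0.01 with total counts and was near 0 without replicate 1 of WT. *GTR1*, a glucosinolate transporter, had 32.5 and 34.2 CPM in *fry1-6 rdr6-11*, against 131 and 214 CPM in WT (log2 −2.37). Of 83 redox and detoxification genes, 13 were lower (15.7%) and 9 higher (10.8%, near the share of all genes), with a median of −0.18 that turned to 0.19 with total counts. *APX3*, an ascorbate peroxidase, was lower at 126 and 111 CPM in *fry1-6 rdr6-11*, against 250 and 243 CPM in WT (log2 −1.05). *CKX4* and *CKX7*, which break down cytokinin, changed by −3.30 and −1.72, but their list did not fall as a group. Of 43 cytokinin genes, 4 were lower (9.30%) and 4 higher (9.30%), with a median of 0.14. Without replicate 2 of *fry1-6 rdr6-11*, 0 histone, 0 glucosinolate and 0 redox genes were lower, and without its replicate 1 the numbers were 2, 0 and 3. Raised genes of the 3 lists numbered 0, 0 and 2 without either *fry1-6 rdr6-11* library, 0, 1 and 6 without replicate 1 of WT, and 1, 2 and 6 without replicate 2 of WT.

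The raised genes were scarce in WT and of mixed function. Of the 2414, 450 rose at least 16-fold on the fitted scale and 189 had no read in either WT library. Those 189 entered the test only through reads in the mutants. *ABCC6*, an ABC transporter, had 52.0 and 58.3 CPM in *fry1-6 rdr6-11*, against 1.00 and 0.552 CPM in WT (log2 6.16, SE 0.31, adjusted p = 4.69e-04). *AT1G07710*, an ankyrin repeat protein, had 18.1 and 19.7 CPM in *fry1-6 rdr6-11*, against 0.358 and 0.368 CPM in WT (log2 5.67, SE 0.25, adjusted p = 3.09e-04). *AT5G35640*, listed as a putative endonuclease or glycosyl hydrolase, had 19.0 and 28.0 CPM in *fry1-6 rdr6-11*, against 0.0715 and 0.307 CPM in WT. The proline-rich protein gene *AT2G27380* (*EPR1*) had 7.90 and 10.2 CPM in *fry1-6 rdr6-11* and no read in either WT library, and a clock gene of the same symbol is another locus. In *fry1-6* it stood at 72.7 and 63.6 CPM. Genes with the largest gains in CPM included *GASA1*, a small secreted peptide gene that answers to gibberellin, with 517 and 530 CPM in *fry1-6 rdr6-11*, against 110 and 205 CPM in WT (log2 1.73, SE 0.41, adjusted p = 0.0307). *GAMMA-TIP*, a water channel of the vacuole, had 415 and 337 CPM in *fry1-6 rdr6-11*, against 153 and 204 CPM in WT (log2 1.07). *NRT2.7*, a nitrate transporter, had 364 and 488 CPM in *fry1-6 rdr6-11*, against 124 and 67.3 CPM in WT (log2 2.15, SE 0.59, adjusted p = 0.0481). These 3 missed the threshold without replicate 1 of WT and without either *fry1-6 rdr6-11* library.

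The share called higher differed between classes of locus, a difference that was neither tested nor set against level. It was 73 of 193 transcribed pseudogenes (37.8%), 57 of 198 other pseudogenes (28.8%) and 2062 of 20680 protein-coding genes (9.97%). Among RNA genes it was 181 of 1196 long non-coding RNAs (15.1%), 17 of 118 other non-coding RNAs (14.4%) and 8 of 76 antisense RNAs (10.5%). It was 5 of 111 small nucleolar RNAs (4.50%). In classes with few members it was 3 of 4 ribosomal RNAs (75.0%), 4 of 12 transfer RNAs (33.3%) and 4 of 18 small nuclear RNAs (22.2%). Large gains in CPM included loci that overlap other annotated genes. *AT3G41762*, of unknown function, had 1282 and 1058 CPM in *fry1-6 rdr6-11*, against 14.9 and 1.53 CPM in WT (log2 7.16, SE 1.16, adjusted p = 0.0104), and lies 811 bases from a ribosomal RNA gene. Reads from copies of repeated sequence were given to 1 position, so the values of such loci are uncertain.

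Many raised protein-coding genes lay just after another gene on the same strand. Of 2061 raised genes with a neighbour in RefSeq's annotation, 863 (41.9%) started under 500 bases after a gene of the same strand, against 340 of 1675 lowered genes (20.3%) and 4899 of all 20675 (23.7%). On the opposite strand the shares were 10.4%, 14.8% and 14.8%. The difference was present at every level up to a log2 CPM of 6, with 46.4% of the raised genes against 22.5% of all below 0, and 38.9% against 24.5% from 4 to 6. From 6 upwards it was 25.0% against 23.5%. Among the 4899 genes with such a close neighbour, 17.6% were higher and 6.94% lower. Of the 781 tested genes that these raised genes followed, 83 were higher (10.6%) and 61 lower (7.81%), near the shares of all genes, with a median change of −0.02.

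The arrangement can be seen at single loci. *AT1G48405*, 18 bases after *AGO1*, which encodes the main small-RNA effector, had 13.8 and 16.1 CPM in *fry1-6 rdr6-11*, against 0.0715 and 0.245 CPM in WT (log2 6.45, SE 0.47, adjusted p = 0.00122). *AGO1* itself had 223 and 230 CPM in *fry1-6 rdr6-11* and 242 and 215 CPM in WT. *CHX4*, a cation exchanger that starts where the ribosomal protein gene *RPL9* ends, had 12.2 and 13.4 CPM in *fry1-6 rdr6-11*, against 0.715 and 0.0613 CPM in WT, whereas *RPL9* had 176 and 166 CPM in *fry1-6 rdr6-11*, against 210 and 195 CPM in WT. Neither *AGO1* nor *RPL9* was called (adjusted p = 0.959 and 0.293). Whether their reads began in the gene before them was not tested, since counts per gene do not show where a transcript starts.

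**Figure D4:**
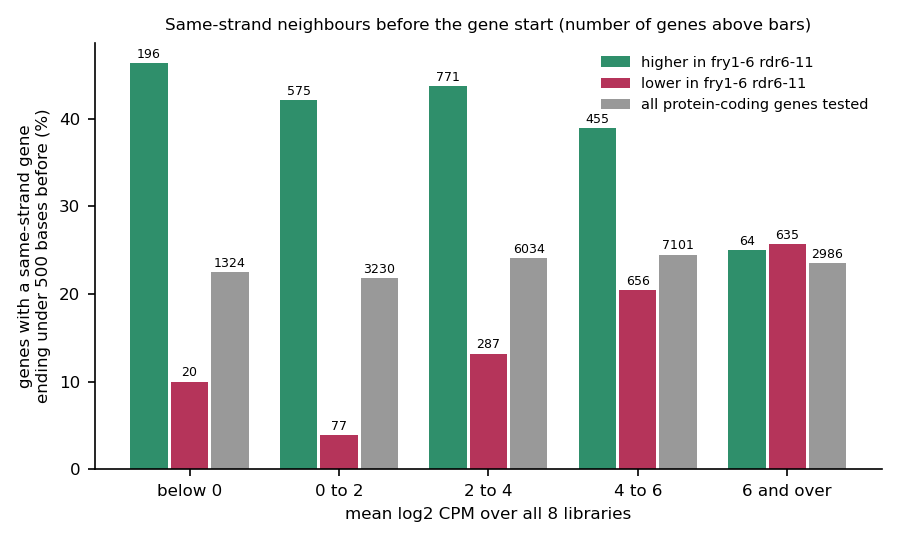
Share of protein-coding genes that start under 500 bases after another gene of the same strand (vertical axis, percent), for genes called higher or lower in *fry1-6 rdr6-11* than in WT and for all genes tested, by mean level (log2 CPM). The raised genes stand at 46.4% in the lowest bin, against 22.5% of all, and at 25.0% in the top bin, against 23.5% of all.

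Some large gene families held more raised than lowered members, as did all genes tested (10.7% higher and 7.97% lower). The family shares were not matched for level. Of all genes tested, 18.5% were higher at a mean log2 CPM of 0 to 2 and 13.3% at 2 to 4. Of 264 pentatricopeptide repeat genes, which encode RNA-binding proteins of organelles, 41 were higher (15.5%, against 10.7% of all genes tested) and 10 lower, with a median of 0.35. *AT4G39952*, one of them, had 13.8 and 15.1 CPM in *fry1-6 rdr6-11*, against 2.43 and 2.51 CPM in WT (log2 2.54, SE 0.21, adjusted p = 0.00163). Of 147 receptor-like kinases with leucine-rich repeats, 25 were higher (17.0%) and 5 lower, with a median of 0.30, and *AT3G47110* had 22.6 and 24.9 CPM in *fry1-6 rdr6-11*, against 1.00 and 1.41 CPM in WT (log2 4.28, SE 0.24). Of 132 NLR genes, which encode intracellular immune receptors, 24 were higher (18.2%) and 12 lower, with a median of 0.14. *AT1G12290* had 48.9 and 63.6 CPM in *fry1-6 rdr6-11*, against 6.15 and 3.43 CPM in WT (log2 3.56), whereas *RPP4* was among the lowered members. Of 108 UDP-glycosyltransferases, 16 were higher (14.8%) and 5 lower. The cytochrome P450 family, with 19 of 156 higher (12.2%) and 15 lower (9.62%), lay near the shares of all genes. With total counts, 102 pentatricopeptide repeat genes, 48 kinases, 39 NLR genes and 25 transferases were higher, and 2, 4, 6 and 2 lower. Without replicate 1 of WT, the median was 0.54 for the kinases and 0.28 for the NLR genes, and without replicate 2 of *fry1-6 rdr6-11* it was 0.03 for the NLR genes. Raised members without replicate 1 and replicate 2 of *fry1-6 rdr6-11* numbered 15 and 5 for the pentatricopeptide repeat genes, 10 and 6 for the kinases, 12 and 6 for the NLR genes and 5 and 4 for the transferases. Without replicate 2 of WT, 14 kinases were higher, and without replicate 1 of WT 27 pentatricopeptide repeat genes were higher and 5 lower. Lowered members without the *fry1-6 rdr6-11* libraries in turn numbered 1 and 1, 1 and 0, 2 and 2, and 2 and 1 in the same order of families.

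Of 74 auxin genes, 8 were higher (10.8%) and 5 lower (6.76%), near the 10.7% and 7.97% of all genes tested, with a median of 0.06. *ARF10*, an auxin response factor, had 83.8 and 97.5 CPM in *fry1-6 rdr6-11*, against 14.2 and 15.3 CPM in WT (log2 2.62, SE 0.16, adjusted p = 7.75e-04), and the auxin receptor *AFB2* had 83.9 and 77.9 CPM in *fry1-6 rdr6-11*, against 40.1 and 33.7 CPM in WT (log2 1.13). Both are known targets of microRNAs, as are *CSD1*, a copper/zinc superoxide dismutase, and *SPL3*, a flowering factor, the last of which was looked up after its values were seen. Targets of microRNAs were not listed or counted as a group, so how they changed as a set was not tested. *CSD1* had 98.8 and 113 CPM in *fry1-6 rdr6-11*, against 18.2 and 28.0 CPM in WT (log2 2.20), and *SPL3* had 22.7 and 31.3 CPM in *fry1-6 rdr6-11*, against 6.08 and 7.60 CPM in WT (log2 1.98). Raised auxin genes numbered 5 without replicate 2 of WT and 3 and 2 without replicate 1 and replicate 2 of *fry1-6 rdr6-11*, and lowered ones 3, 0 and 0. Of these 4 genes, *ARF10* alone was called without any one library.

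The basic machinery of the cell moved little under TMM. Of 285 cytosolic ribosomal protein genes, 9 were lower (3.16%) and 11 higher (3.86%), against 7.97% and 10.7% of all genes tested. Their median was 0.01, but 70 were higher and 2 lower with total counts. Of 38 proteasome genes, 2 were lower and 2 higher, again with a median of 0.01, and with total counts 13 were higher. Of 32 genes of mitochondrial respiration, 2 were lower and none was called higher. Of 56 genes of small RNA and RNA decay machinery, 1 was lower and 3 higher, with a median of 0.02. The raised ones included *TAS3*, a source of trans-acting small interfering RNAs, with 13.4 and 10.5 CPM in *fry1-6 rdr6-11*, against 4.94 and 5.40 CPM in WT (log2 1.21), and *DRB4*, a double-stranded RNA-binding partner of Dicer, at 0.74. The ribosomal protein genes called without replicate 1 and replicate 2 of *fry1-6 rdr6-11* were 2 and 0 lower and 1 and 0 higher, and without replicate 1 and replicate 2 of WT 14 and 4 were lower and 5 and 15 higher. Of the proteasome genes, 0 were called in either direction without either *fry1-6 rdr6-11* library, and 0 were higher without either WT library.

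Among the root, shoot and vascular markers, only the root list held a larger share of raised members than all genes tested. Of 53 root markers, 8 were higher (15.1%) and 1 lower (1.89%), against 10.7% and 7.97% of all genes tested. The median of the root markers was 0.83, or 0.29 without replicate 2 of WT and 1.41 without replicate 1 of WT. With total counts 17 of them were higher. The marker shares were not matched for level, and 13.3% of all genes tested were higher at a mean log2 CPM of 2 to 4. *RHS16*, a root hair gene, had 5.27 and 4.87 CPM in *fry1-6 rdr6-11*, against 0.787 and 0.552 CPM in WT (log2 2.92). Of 34 shoot markers, 3 were higher (8.82%) and none was called lower. Their median was 0.24, or 0.41 without replicate 1 of WT and 0.03 without replicate 2 of WT. *YAB2*, of the lower leaf side, had 24.9 and 22.8 CPM in *fry1-6 rdr6-11*, against 11.5 and 12.3 CPM in WT (log2 1.00). Of 30 vascular markers, 1 was lower (3.33%) and 2 higher (6.67%). Their median was −0.40, or −0.07 without replicate 1 of WT and −0.63 without replicate 2 of WT. The part of root or shoot tissue in the lowered photosynthesis genes was not tested. Of the root markers, 5 were higher without replicate 2 of WT and 2 without either *fry1-6 rdr6-11* library, and of the shoot markers 1 and 0 were higher without replicate 1 and replicate 2 of *fry1-6 rdr6-11*.

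**Figure D5:**
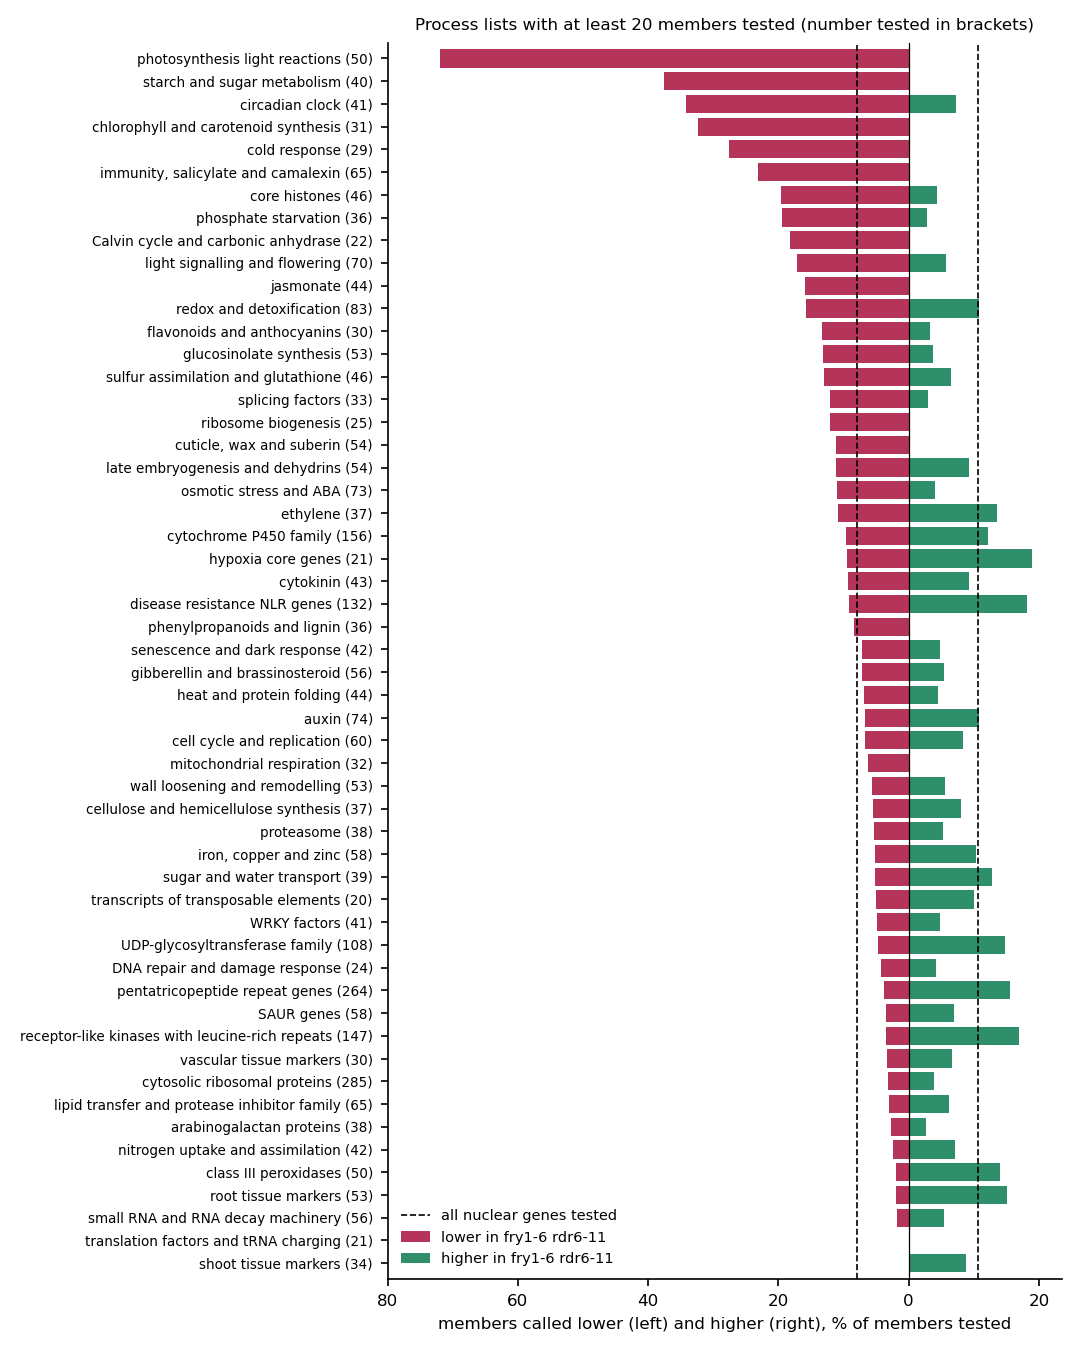
Shares of members called lower (left) and higher (right) in *fry1-6 rdr6-11* against WT, in percent of members tested, for the larger gene lists. Dashed lines mark the shares of all nuclear genes tested. Photosynthesis stands out with 72.0% called lower and 0 called higher, and cold response, the list with the lowest median (−2.30), has 27.6% called lower.

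The genes with the largest changes were also set against the other mutants. These comparisons share the *fry1-6 rdr6-11* libraries with the one against WT and with each other. The genes were picked by their extreme values in those same libraries. The numbers called among them are partly set by that choice and cannot be weighed against the shares of all genes. Of all genes tested, 2.93% were lower and 1.56% higher than in *fry1-6*, and 1.01% lower and 0.102% higher than in *fry1-6 rdr1-1*. Of the 10 lowered genes with the largest fold change, 7 were also lower than in *fry1-6* and 5 than in *fry1-6 rdr1-1*. Of the 10 with the largest difference in CPM, the numbers were 8 and 7. *LHCB2.1* had 52.6 and 41.3 CPM in *fry1-6 rdr6-11*, 2890 and 1711 CPM in *fry1-6* and 4053 and 2759 CPM in *fry1-6 rdr1-1* (log2 −5.61 and −6.18, adjusted p = 0.00647 and 0.0156). *PIF4* had 8.63 and 6.39 CPM in *fry1-6 rdr6-11*, 137 and 116 CPM in *fry1-6* and 162 and 177 CPM in *fry1-6 rdr1-1* (log2 −4.07 and −4.49, adjusted p = 0.00419 and 0.0137).

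*GRP7* took another course. It had 792 and 695 CPM in *fry1-6 rdr6-11*, 2987 and 3859 CPM in *fry1-6* and 408 and 1312 CPM in *fry1-6 rdr1-1*, and neither difference passed (adjusted p = 0.0599 and 0.867). *CCR1* was lower in *fry1-6 rdr6-11* than in *fry1-6*, with 532 and 717 CPM there (log2 −2.76, adjusted p = 0.0114), and stood at 118 and 196 CPM in *fry1-6 rdr1-1* (adjusted p = 0.252). Of the 10 raised genes with the largest fold change, 2 were lower in *fry1-6 rdr6-11* than in *fry1-6*, 1 was lower than in *fry1-6 rdr1-1*, and none was called higher than in either. Of the 10 raised genes with the largest difference in CPM, 1 was lower and 2 were higher in *fry1-6 rdr6-11* than in *fry1-6*, and 1 was lower than in *fry1-6 rdr1-1*. *ABCC6* had 52.0 and 58.3 CPM in *fry1-6 rdr6-11*, beside 63.4 and 64.3 CPM in *fry1-6* and 57.5 and 42.0 CPM in *fry1-6 rdr1-1*.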

How the data were processed

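RNA was sequenced from Arabidopsis seedlings of 4 genotypes with 2 libraries each. Per the labels, reads were mapped with STAR 2.6 and counted per gene with featureCounts 1.6.4, and CASAVA is also named in the submitters' processing notes. The authors deposited raw counts per gene without normalization. Reads with several positions were given to 1 of them, and AT2G08665 and AT2G34420, which overlap, share counts. The genotype entries of the *fry1-6 rdr1-1* samples name the other double mutant, and their titles were followed.

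Genes were kept by edgeR's filterByExpr (minimum count 10, minimum total 15), scaled by TMM, and fitted with the quasi-likelihood model over all 8 libraries (edgeR 4.0.16, limma 3.58.1, R 4.3.3), with 4 residual degrees of freedom and a biological coefficient of variation of 27%. A gene was called at a Benjamini-Hochberg adjusted p under 0.05 over the 22744 genes tested. With 2 libraries against 2, an exact permutation test of a single gene cannot go below p = 0.333, two-sided. On simulated data for this comparison (23757 genes, 200 changed), the fit recovered 89% of 4-fold and 8% of 2-fold changes with 5 false calls. The simulation gave every gene and library the same coefficient of variation, and changed far fewer genes than were called here. Its rates therefore need not hold for the real libraries. The replicates were not duplicates, since their counts differed by chi-square values per gene of 18 (*fry1-6 rdr6-11*) and 105 (WT).

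Named genes were the mutated genes, the 10 lowered and 10 raised with the largest fold change (mean log2 CPM of at least 3, genotypes not overlapping, no overlap with another gene), the 10 and 10 with the largest difference in CPM, and up to 4 called members per list with the smallest adjusted p (mean log2 CPM of at least 1), plus those said to be looked up later. The 60 lists and the rules were chosen with earlier results of these data known. Gene names, neighbours and promoters came from RefSeq's TAIR10.1 annotation, which matched 99.2% of the gene identifiers. The alternatives were DESeq2 1.42.0, its size factors, total counts, the 4 libraries alone, no organelle genes, no filter, 10 or more counts demanded of all libraries, the replicate number as a block, an offset for length and GC content (mgcv 1.9.3), stricter thresholds and each library left out. Python 3.11.15, pandas 2.3.3 and matplotlib 3.10.9 were used for tables and plots.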

Additional observations from a re-analysis of the deposited data

Results flagged for a closer look

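Genes encoded in the chloroplast, which lie outside the comparison of nuclear genes, held more of the counts in *fry1-6 rdr6-11* than in WT. They took 2.47% and 2.29% of all counts in the *fry1-6 rdr6-11* libraries, against 0.161% and 0.0342% in the WT libraries. The share was 0.173% and 0.0509% in *fry1-6*, and 2.80% and 2.40% in *fry1-6 rdr1-1*. Both double mutants stood above WT and *fry1-6* in every library. Any difference in how the double mutants were handled cannot be told apart from genotype in the comparison with WT. Without chloroplast and mitochondrial genes in the fit, 1805 nuclear genes were lower and 2426 higher in *fry1-6 rdr6-11*, beside 1801 and 2414 with them.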

How the results depend on the processing

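Both counts of called genes kept within 1.5 times their value with DESeq2's size factors, without organelle genes, without a filter, with the replicate block and with the length and GC offset. The lowered genes, 1801 in the reported fit, numbered 2752 with DESeq2, 962 with total counts, 799 with the 4 libraries alone, 321 at an adjusted p under 0.01 and 1082 with at least a 2-fold change. The raised genes, 2414 in the reported fit, numbered 5737 with total counts, 971 with the 4 libraries alone, 700 at an adjusted p under 0.01 and 1607 with 10 or more counts demanded of all libraries. With each library left out in turn, the lowered genes ranged from 97 to 1925 and the raised genes from 494 to 2058. The fits without a *fry1-6 rdr6-11* library leave that genotype with 1 sample, which is assumed to vary like the other genotypes. None of the 220 named genes that were called changed direction under any alternative, whereas *ELF3* and *LHCB4.3*, which were not called, did in some. Called genes had no overlap between the libraries of the genotypes, so leaving out a library could hardly reverse them. Of the 220, 194 kept their call with total counts, 155 with the 4 libraries alone and 219 with DESeq2. The replicate numbers are not stated to pair the samples, and deviations of same-numbered *fry1-6 rdr6-11* and WT libraries correlated at −0.232 across genes. The same value was 0.663 for WT with *fry1-6*, 0.182 for the double mutants with each other, and between −0.191 and −0.164 for the remaining pairs of genotypes. With the number as a replicate block, 1472 genes were lower and 2054 higher. With the crossed pairing, chosen after seeing the data, 2584 were lower and 3087 higher. Depth limits the scarce genes most, since 3 counts equal 0.127 and 0.138 CPM in *fry1-6 rdr6-11* and 0.215 and 0.184 CPM in WT.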
